A study of Mus musculus with 24 samples.

Results

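The circadian clock genes Per1, Per2, Per3, Cry1, Cry2, Dbp, Tef, Nr1d1, Nr1d2 and Clock were followed in cultured alveolar epithelial cells. They were taken by name, and each of the 10 symbols matched 1 of the 55421 mouse gene identifiers in the count table. RNA-Seq had been done on type 2 alveolar epithelial cells (AEC2s), the surfactant-producing progenitors of the alveolus, from Krt8+/+ mice (WT) and from Krt8-/- mice (KO). The KO is global, so keratin 8, an intermediate filament protein, was missing from every cell of the KO animals and not from the AEC2s alone. Cells were lysed when freshly isolated (D0) or after 1, 3, or 7 days in 2D culture (D1, D3, and D7), and no group was given any further agent. Each of the 8 groups held 3 libraries, 1 for each of 3 date-like suffixes in the sample titles. Each suffix is shared by all 8 groups and is read here as 1 isolation. The sources used here do not give the age of the mice, how many mice went into an isolation, or the hour at which RNA was harvested.

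The mammalian clock is a loop of transcription and repression that runs in nearly every cell. CLOCK pairs with BMAL1 (encoded by Arntl) and activates genes through a DNA element called the E-box, among them the Per and Cry genes, whose proteins return to the nucleus and repress the pair. The same pair drives Nr1d1 and Nr1d2, which encode the repressors REV-ERBα and REV-ERBβ, and these act on Arntl and compete with the ROR activators. It also drives Dbp, which with Tef and Hlf forms the PAR bZIP family of activators that bind the D-box, where the repressor NFIL3 binds as well. In the lung, clocks of epithelial cells are known for daily rhythms in the response to inflammation and glucocorticoids. In cells that keep time, the level of most of these genes changes with the hour, and RNA from cells out of step with each other averages those rhythms.

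Total counts ranged from 10184439 to 19483386 per library. Krt8 itself, the targeted gene, lay between 485 and 5092 CPM (counts scaled to the effective size of the library) in the 12 WT libraries and between 21.2 and 47.4 CPM in the 12 KO libraries. The summed level of 6 AEC2 markers was 179600 to 245100 CPM in WT on D0, 12610 to 69860 CPM on D1, 298 to 581 CPM on D3, and 150 to 204 CPM on D7, with none of the 6 genes at 0 over any group, so the AEC2 markers that define the isolated cells were nearly lost by D3. Sums over 6 markers of the transitional state between AEC2s and type 1 cells (AEC1s) were 1104 to 1268 CPM in WT on D0. They were 10030 to 16410 CPM on D7, and in KO 838 to 919 CPM and 5122 to 10890 CPM. The AEC1 list of 6 markers summed to 2278 to 2957 CPM in WT on D0 and 1304 to 2330 CPM on D7. Within it Hopx, Pdpn, Rtkn2, and Akap5 were higher on D7, Aqp5 was lower, and Ager did not pass. Sums over 7 fibroblast markers were 294 to 989 CPM in WT on D0, 139 to 255 CPM on D1, and 872 to 1809 CPM on D7. Col1a1 and Col1a2 were higher on D7 (9.61-fold and 8.37-fold), while Dcn, Lum, and Col3a1 were lower (11.4-fold, 3.17-fold, and 2.95-fold), and the other 2 did not pass. Sums over 6 smooth muscle and pericyte markers rose from 5.76 to 27.2 CPM in WT on D0 to 186 to 348 CPM on D7, and from 6.72 to 26.6 CPM to 202 to 566 CPM in KO, and the 5 genes tested were all higher in both genotypes. In WT sums over 7 airway markers were 5841 to 11960 CPM on D0 and 26.1 to 37.1 CPM on D7. The KO sums on D0 were 200100 to 247700 CPM for AEC2 markers, 330 to 727 CPM for fibroblast markers, and 14270 to 19620 CPM for airway markers. Macrophage, endothelial, lymphocyte, and neutrophil lists summed to at most 195 CPM in any library. Fewer cells of a type and less RNA per cell cannot be told apart in these bulk libraries, and the part these lists have in the results on clock genes was not tested. In isolation 1, Y-linked genes were near 0 in WT (at most 0.441 CPM summed) and at 173 to 191 CPM in KO, so sex and genotype cannot be told apart there, while both genotypes matched in isolations 2 and 3.

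Promoter sequence is shown for the members whose windows hold an E-box or a D-box, the letters that CLOCK with BMAL1 and the PAR bZIP factors are known to bind. RefSeq windows on GRCm38.p6, running from 250 bases before to 50 bases after a start site, were matched to 9 of the 10 members (13 windows), all but Per2. The E-box CACGTG was in 4 of the 13 windows, those of Per1, Cry1, and Tef (both of its windows), and in 7.15% of all 32851 windows. The D-box, searched as TTATGTAA and TTACGTAA on both strands, was in 1 of the 13, that of Per3, which holds 2 copies, and in 1.06% of all windows. The cAMP response element TGACGTCA was in none of the 13 and in 1.79% of all windows. Shorter or looser elements were searched too, and windows that hold them alone are not shown. The E-prime box CACGTT was in 3 of the 13 windows, those of Cry1, Cry2, and Nr1d1, and in 4.68% of all windows. The ROR element AGGTCA was in 3, those of Per1, Nr1d2, and Clock, and in 16.3% of all. TGACG, which is part of the cAMP response element, was in 4, of Per1, Cry1, and Cry2, and in 20.8% of all. The E-box lies 166 bases before the start in Per1, 60 bases in Cry1, and 127 bases in Tef, and the D-boxes of Per3 lie 205 and 158 bases before the start. The 250 bases before the start follow, 5′ to 3′, with the E-box or D-box letters in capitals. The matches do not overlap each other, and a match is a run of letters, not a measured binding site.
Per1, chr11:69098699-69098948, plus strand: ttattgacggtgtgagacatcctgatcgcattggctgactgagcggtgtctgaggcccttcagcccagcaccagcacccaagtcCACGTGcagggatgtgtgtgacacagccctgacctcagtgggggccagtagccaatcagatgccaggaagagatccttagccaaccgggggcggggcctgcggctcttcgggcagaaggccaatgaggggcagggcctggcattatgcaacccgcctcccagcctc
Cry1, chr10:85185055-85185304, minus strand: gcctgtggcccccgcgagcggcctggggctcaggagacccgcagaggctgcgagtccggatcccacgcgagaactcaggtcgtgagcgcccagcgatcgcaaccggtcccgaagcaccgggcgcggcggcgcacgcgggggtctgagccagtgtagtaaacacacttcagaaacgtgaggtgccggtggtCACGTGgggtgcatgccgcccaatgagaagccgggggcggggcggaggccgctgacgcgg
Tef, chr15:81802423-81802672, plus strand: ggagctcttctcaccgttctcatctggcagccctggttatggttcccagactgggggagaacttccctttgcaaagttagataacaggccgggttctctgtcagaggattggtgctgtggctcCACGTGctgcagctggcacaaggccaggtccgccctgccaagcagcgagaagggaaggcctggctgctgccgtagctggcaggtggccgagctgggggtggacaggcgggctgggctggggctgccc
Per3, chr4:151044666-151044915, minus strand: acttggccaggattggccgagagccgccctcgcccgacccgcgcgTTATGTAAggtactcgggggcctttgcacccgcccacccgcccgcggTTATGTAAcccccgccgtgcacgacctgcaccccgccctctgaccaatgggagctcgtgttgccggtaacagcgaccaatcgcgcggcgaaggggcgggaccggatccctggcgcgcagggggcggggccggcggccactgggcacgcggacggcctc
Of these 4 genes, Per1, Tef, and Per3 were lower on D1 than on D0 and Cry1 was higher, so the 3 genes with an E-box in this window did not all move in the same direction.

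Most clock genes were far lower in culture than in freshly isolated cells. With edgeR's quasi-likelihood test and p-values adjusted over 18046 genes (threshold 0.05), 7 of 10 members were lower and 1 was higher in WT on D1, 8 were lower and 1 higher on D3, and 8 were lower and 0 higher on D7. In KO the same counts were 8 lower and 1 higher on D1, 8 and 1 on D3, and 8 and 0 on D7. Culture changed much of the transcriptome, and these counts have to be read against it. Of all genes tested, 54.7% passed in either direction in WT on D1, 54% on D3, and 58.8% on D7, and 50.6%, 52%, and 58.5% did in KO. Lower genes alone were 28.5%, 27.8%, and 30.2% of all genes in WT and 26.9%, 26.6%, and 29.9% in KO, against 70% to 80% of the members. The median log2 difference over the members was -1.25 on D1, -2.45 on D3, and -2.69 on D7 in WT, where the median over all genes was between -0.01 and 0.01. In KO the members' medians were -1.43, -2.45, and -2.64. Clock on D3, and Clock and Cry1 on D7, were the members that did not pass, in both genotypes alike, and on D1 Nr1d2 passed in KO and not in WT. Scaling by library totals alone, without the TMM factors that correct for a few very abundant genes, raised the median of all genes by 0.43 to 0.60 against D0. On that scale lower genes were 30.2%, 25.3%, and 33.7% of the calls in WT on D1, D3, and D7 in place of 52.1%, 51.6%, and 51.4%, and 28.2%, 26.2%, and 34.3% in KO in place of 53.1%, 51.2%, and 51.1%.

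**Figure D1:**
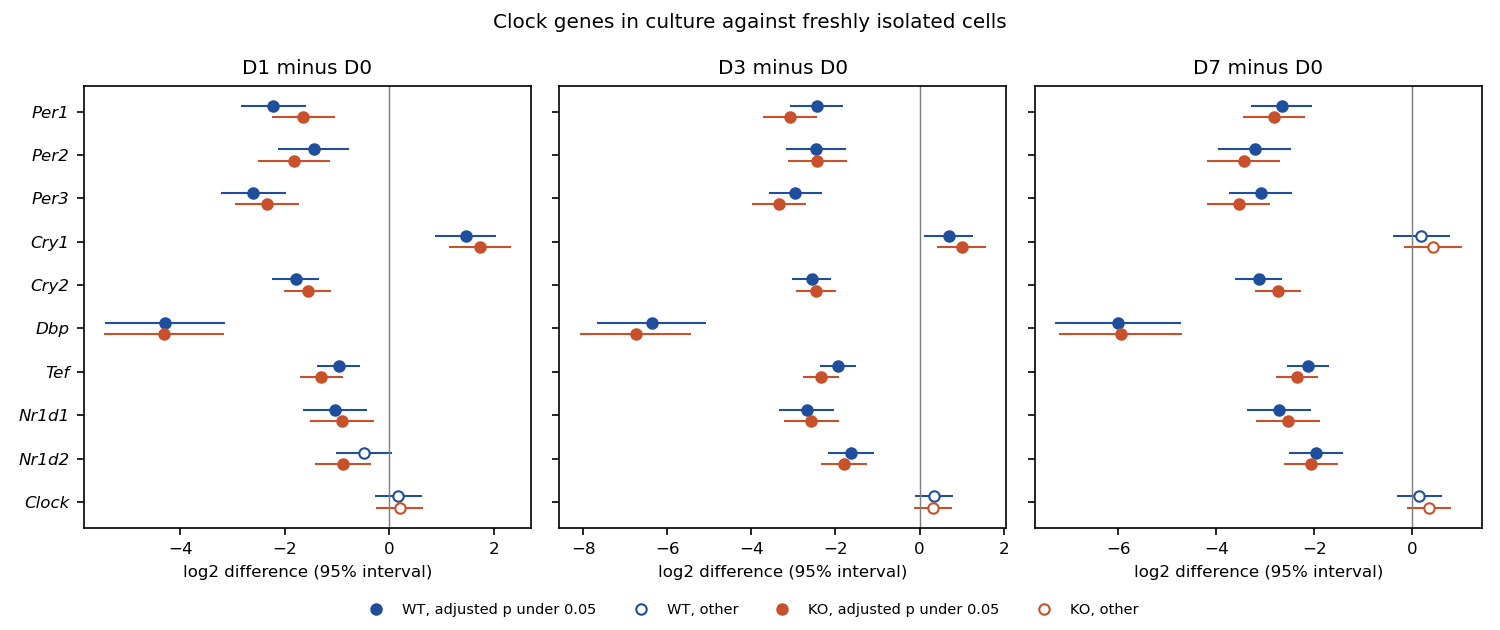
Log2 difference of each clock gene on D1, D3, and D7 against D0 (x axis, with 95% intervals) in WT (blue) and KO (red), with filled points where the adjusted p was under 0.05. Dbp lies farthest to the left on each day, at -6.37 in WT on D3. Cry1 is the member with filled points to the right of 0 on D1 and D3. Clock has open points to the right of 0, with intervals that span 0 throughout.

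Per1, Per2, and Per3 encode the PERIOD proteins, the repressing arm of the loop. Per1 (chromosome 11, 69095217 to 69109960 on GRCm38) was at 14.3, 19.5, and 22.1 CPM in the 3 WT isolations on D0 and at 4.26, 3.76, and 3.94 CPM on D1. Its D7 levels were 3.00, 2.65, and 3.12 CPM. Every cultured WT library was thus below every D0 library, and most of the fall was present after 1 day. The log2 difference was -2.22 ± 0.30 (SE, n = 3) on D1 and -2.67 ± 0.30 on D7 (adjusted p = 3.3e-06 and 2.5e-07).

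Per2 (chromosome 1, 91415982 to 91459324) fell in steps. It was at 78.7, 42.7, and 44.5 CPM in WT on D0, at 23.5, 13.9, and 23.3 CPM on D1, at 10.4, 9.46, and 10.4 CPM on D3, and at 5.72, 5.31, and 6.83 CPM on D7. In WT the groups of successive days did not overlap. In KO D3, at 7.59 to 16.6 CPM, overlapped both D1 (12.0 to 23.4 CPM) and D7 (4.58 to 8.87 CPM). The WT step from D1 to D3 did not pass without isolation 1 or isolation 3 (adjusted p = 0.142 and 0.16). The WT step from D3 to D7 did not pass. Log2 differences from D0 were -1.45 ± 0.33, -2.46 ± 0.34, and -3.21 ± 0.36, the last of these a 9.28-fold lower level (adjusted p = 9.3e-04, 4.3e-06, and 1.7e-07). KO gave -1.83 ± 0.33, -2.43 ± 0.34, and -3.44 ± 0.36.

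Per3 (chromosome 4, 151003652 to 151044665) was at 57.1, 34.3, and 34.8 CPM in WT on D0 and at 7.05, 6.85, and 6.86 CPM on D1, a log2 difference of -2.61 ± 0.30 (adjusted p = 4.7e-07). It stayed between 3.38 and 7.80 CPM on D3 and D7. In KO it went from 50.7 ± 8.72 CPM (SD, n = 3) on D0 to 9.97 ± 2.43 CPM on D1 and 4.37 ± 1.04 CPM on D7. Per1 in KO went from 18.9 ± 8.10 CPM to 6.00 ± 0.80 CPM and 2.65 ± 0.83 CPM on the same days. On D0 the KO values of Per1 ranged from 9.89 to 25.6 CPM, still above all cultured libraries.

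**Figure D2:**
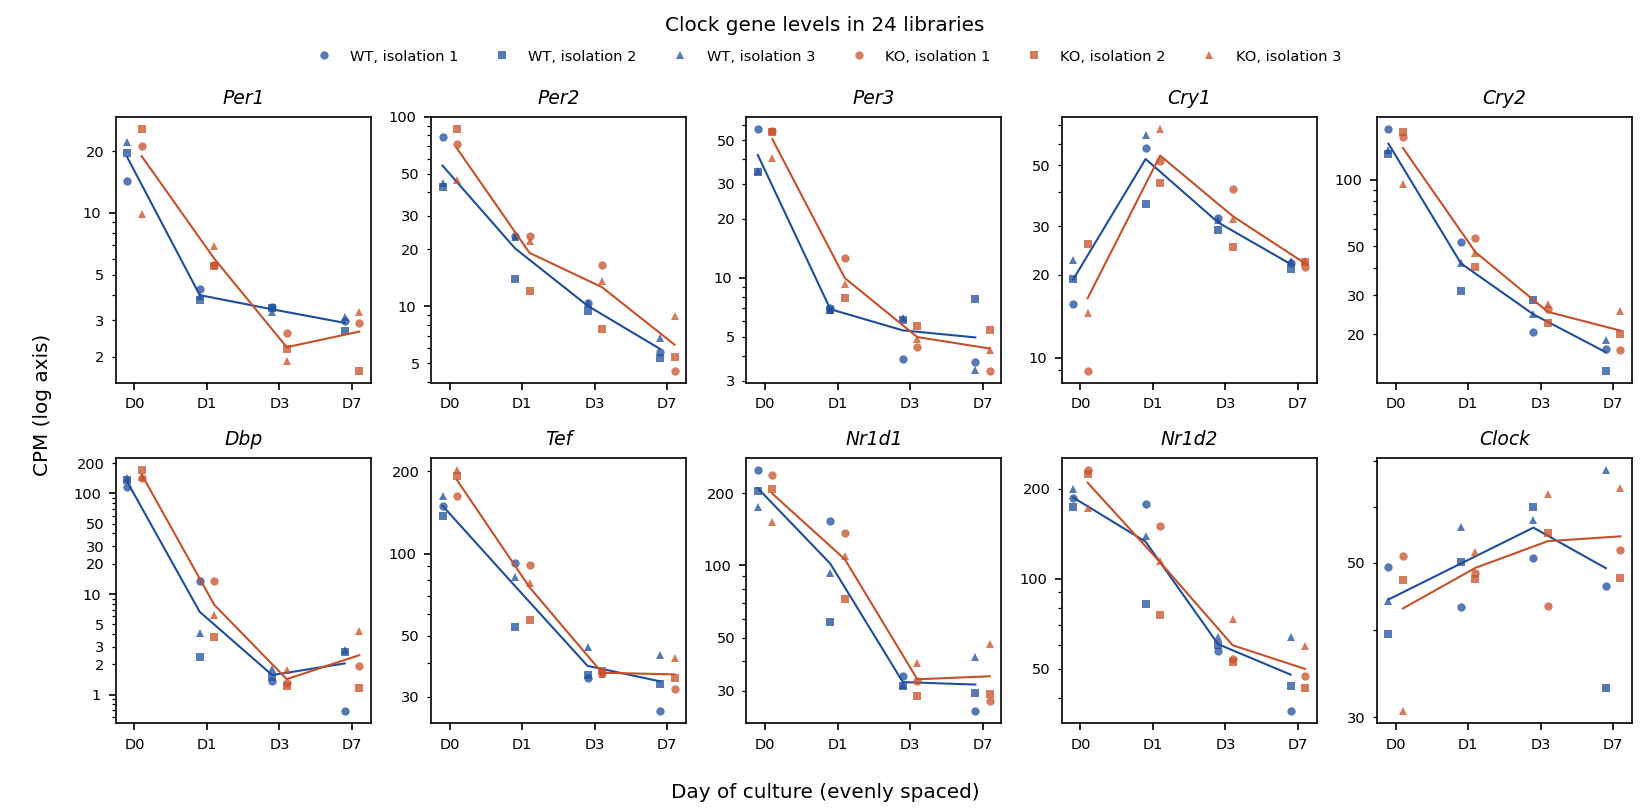
CPM (log axis) of the 10 clock genes on D0, D1, D3, and D7 in WT (blue) and KO (red), with 1 point per library, the shape giving the isolation and the line the group mean. Per, Cry2, Dbp, Tef, and Nr1d levels run down from D0, Cry1 peaks on D1 at a mean of 52.8 CPM in WT, and Clock stays between 30.6 and 67.9 CPM in all 24 libraries.

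The cryptochromes, which repress together with the PERIOD proteins, moved in opposite directions. Cry1 (chromosome 10, 85131700 to 85185064) was at 15.7, 19.4, and 22.7 CPM in WT on D0 and at 57.6, 36.2, and 64.4 CPM on D1. All D1 libraries lay above all D0 libraries, and the log2 difference was 1.46 ± 0.28 (adjusted p = 2.1e-04). In KO the D0 values of 8.995, 25.8, and 14.6 CPM rose to 52.0, 43.0, and 67.8 CPM, with a difference of 1.73 ± 0.28 (adjusted p = 4.2e-05). Cry1 then came down to 31.0 ± 1.65 CPM on D3 and 21.9 ± 0.76 CPM on D7 in WT. The D3 level was still above D0 (0.69 ± 0.28, adjusted p = 0.042), but without isolation 1 the difference was 0.53 (adjusted p = 0.199) and without isolation 3 it was 0.81 (adjusted p = 0.108). In KO the D3 difference was 0.999 ± 0.281 (adjusted p = 0.00527), and 0.51 and 0.94 without isolation 1 and isolation 3 (adjusted p = 0.227 and 0.0702). The D7 difference did not pass in either genotype, with intervals of -0.39 to 0.77 in WT and -0.16 to 1.01 in KO, although without isolation 2 the KO value was 0.95 (adjusted p = 0.0106).

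Cry2 (chromosome 2, 92403646 to 92434043) fell instead. It was at 169, 131, and 136 CPM in WT on D0, at 51.9, 31.4, and 42.0 CPM on D1, at 20.5, 28.6, and 24.6 CPM on D3, and at 17.1, 13.7, and 18.8 CPM on D7. In WT each day lay below the one before it without overlap. In KO D3 (22.4 to 27.3 CPM) and D7 (16.9 to 25.3 CPM) overlapped. The WT step from D1 to D3 did not pass without isolation 1 or isolation 3 (adjusted p = 0.232 and 0.0678). The WT step from D3 to D7 did not pass. The log2 differences were -1.80 ± 0.22, -2.56 ± 0.23, and -3.13 ± 0.23 (adjusted p = 1.0e-06, 1.2e-08, and 7.6e-10), and in KO -1.56 ± 0.22, -2.46 ± 0.23, and -2.74 ± 0.23. As a result the ratio of Cry1 to Cry2, each per kilobase of exon, turned over within a day. It was 0.257 ± 0.073 (SD, n = 3) on D0 and 2.40 ± 0.44 on D1 in WT, and 0.232 ± 0.106 and 2.20 ± 0.50 in KO. In both genotypes it then stayed above 1.6 in every library through D7. Per kilobase of exon, the more abundant cryptochrome transcript was thus Cry2 in all 6 fresh libraries and Cry1 in all 18 cultured ones. In CPM, without regard to length, Cry2 was still above Cry1 in KO isolation 1 on D1 (54.17 against 52.02) and KO isolation 3 on D7 (25.32 against 22.45).

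Dbp, an activator of D-box genes and a common readout of clock output, fell more than any other member. Dbp (chromosome 7, 45705088 to 45710203) was at 115, 136, and 142 CPM in the WT libraries on D0. On D1 the values were 13.5, 2.34, and 4.07 CPM, on D3 1.38, 1.49, and 1.82 CPM, and on D7 0.681, 2.65, and 2.78 CPM. The 3 isolations on D1 were spread from 2.34 to 13.5 CPM while all lay far under D0. The log2 differences were -4.29 ± 0.55, -6.37 ± 0.62, and -6.01 ± 0.61, or 19.6-fold, 82.9-fold, and 64.2-fold lower levels (adjusted p = 1.9e-06, 4.8e-08, and 5.7e-08). In KO the D0 values of 143, 172, and 147 CPM gave way to 13.5, 3.70, and 6.23 CPM on D1 and 1.302, 1.205, and 1.76 CPM on D3, with log2 differences of -4.31 ± 0.55 and -6.75 ± 0.64. Behind the lowest values stand few reads. The D3 and D7 libraries held 10 to 67 Dbp counts each, against 1252 to 1982 on D0. Dbp shares 539 exon bases with Sphk2 on the opposite strand, and the sources used here do not say whether counting used strand, so reads over those bases cannot be told apart. Sphk2 was at 65.8 ± 8.20 CPM in WT on D0 and at 27.8 ± 0.72 CPM on D7, a log2 difference of -1.24.

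Tef (chromosome 15, 81802421 to 81826863), the PAR bZIP partner of Dbp, fell by less. It was at 149.3, 136.6, and 162.4 CPM in WT on D0, at 92.3, 53.9, and 82.0 CPM on D1, and at 26.5, 33.3, and 42.5 CPM on D7. The groups did not overlap, and the log2 differences were -0.97 ± 0.20 on D1, -1.94 ± 0.20 on D3, and -2.13 ± 0.20 on D7 (adjusted p = 3.3e-04, 1.1e-07, and 2.4e-08). In KO they were -1.301 ± 0.198, -2.34 ± 0.20, and -2.36 ± 0.20. Per kilobase of exon, Dbp was 2.31 ± 0.29 times the level of Tef in fresh WT cells and 0.106 ± 0.003 times that level on D3. Over the level of Nfil3, the repressor of the same element, Dbp was 5.1 ± 1.3 times on D0 and 0.0354 ± 0.0058 times on D3.

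Per kilobase of exon the REV-ERB genes were the most abundant members on each day of culture, and on D1 they stood closer to D0 than Dbp and the Per genes did. Nr1d1 (chromosome 11, 98767932 to 98775333) was at 251, 204, and 175 CPM in WT on D0, at 154, 58.2, and 93.0 CPM on D1, at 34.5, 31.6, and 31.8 CPM on D3, and at 24.6, 29.5, and 41.4 CPM on D7. The D1 values did not reach those of D0 but covered a wide range, and D3 lay below all of them. The log2 difference was -1.04 ± 0.30 on D1 (adjusted p = 0.00574), -2.68 ± 0.31 on D3 (5.0e-07), and -2.72 ± 0.32 on D7 (3.3e-07). In KO the differences were -0.91 ± 0.30 (adjusted p = 0.015), -2.57 ± 0.31, and -2.53 ± 0.31. The call on D1 depended on isolation 2 in both genotypes, although all 3 isolations were lower than on D0. Without it the value was -0.71 in WT (adjusted p = 0.103) and -0.58 in KO (0.187). Nr1d1 shares 263 exon bases with Thra on the opposite strand, and Thra fell too, from 53.6 ± 3.56 CPM on D0 to 17.5 ± 2.60 CPM on D3 and 9.95 ± 0.95 CPM on D7 in WT.

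Nr1d2 (chromosome 14, 18204054 to 18239127) was at 186, 174, and 199.9 CPM in WT on D0 and at 178, 82.2, and 139 CPM on D1. Here the groups overlapped, and the difference of -0.49 ± 0.26 did not pass (adjusted p = 0.109). In KO it was -0.88 ± 0.26 (adjusted p = 0.00701), and -0.52 without isolation 2 (adjusted p = 0.13). Whether the genotypes differ in this step was part of the joint test of genotype by day, where Nr1d2 had an adjusted p of 1 with edgeR. By D3 the levels were 57.3, 59.9, and 63.9 CPM in WT, clear of both earlier days, and the difference from D0 was -1.63 ± 0.26 (adjusted p = 2.4e-05). On D7 it was -1.97 ± 0.26 in WT and -2.07 ± 0.27 in KO.

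Clock (chromosome 5, 76209868 to 76304792), the activating subunit, stayed near its starting level. It was at 49.3, 39.4, and 44.1 CPM in WT on D0, at 43.2, 50.2, and 56.2 CPM on D1, at 50.7, 60.0, and 57.6 CPM on D3, and at 46.3, 33.0, and 67.9 CPM on D7. The log2 differences were 0.17 (95% interval -0.28 to 0.62), 0.34 (-0.11 to 0.79), and 0.15 (-0.30 to 0.60), and in KO 0.19, 0.32, and 0.34. None passed, but with scaling by library totals alone all 6 did, at 0.60 to 0.94 on a scale where the median of all genes stood at 0.43 to 0.60.

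The falls changed the order of the members. As RPKM, the CPM divided by the exon length in kilobases, fresh WT cells had Nr1d1 highest at 68.1 ± 12.4, then Dbp at 43.7 ± 4.66, Nr1d2 at 34.5 ± 2.40, Cry2 at 23.0 ± 3.33, Tef at 19.0 ± 1.64, Per2 at 9.44 ± 3.46, Cry1 at 5.77 ± 1.05, Per3 at 4.38 ± 1.36, Per1 at 3.31 ± 0.71, and Clock at 3.22 ± 0.36. The ranges of mean ± SD overlapped between Cry2 and Tef and between each pair of neighbours from Per2 down to Clock. On D7 the order was Nr1d1 at 10.4 ± 2.81, Nr1d2 at 8.83 ± 2.64, Cry1 at 6.56 ± 0.23, Tef at 4.34 ± 1.02, Clock at 3.58 ± 1.28, Cry2 at 2.62 ± 0.41, Per2 at 1.02 ± 0.13, Dbp at 0.681 ± 0.394, Per1 at 0.519 ± 0.042, and Per3 at 0.518 ± 0.255. Cry1 and Tef, and Cry2 and Per2, were the neighbours whose ranges of mean ± SD did not overlap on that day. Dbp had thus moved from the second place to the eighth, and Clock from the tenth to the fifth.

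Between D1 and D3 a second step was seen. In WT, 7 members were lower on D3 than on D1 and 0 were higher, against 26.3% of all genes changed in either direction and 11.9% lower. In KO 7 were lower and 0 higher, against 23.6% and 10.2%. Nr1d1 fell by 1.64 ± 0.31 on the log2 scale in WT and by 1.66 ± 0.31 in KO (adjusted p = 5.3e-04 in both). Dbp fell by 2.08 ± 0.58 and 2.44 ± 0.59 (adjusted p = 0.0118 and 0.00521), and Tef fell by 0.97 ± 0.20 and 1.03 ± 0.20 (0.00125 and 7.9e-04). The WT value of Dbp was -0.96 without isolation 1 and -2.47 without isolation 3, and neither passed (adjusted p = 0.178 and 0.0523). Per1 had -0.23 ± 0.29 in WT and did not pass (adjusted p = 0.598), whereas in KO it fell by 1.43 ± 0.30 (0.00179). With library totals alone lower genes were 31% of all calls in WT in place of 45.1% and 5 members passed. These counts depended on the isolations kept. In WT 2 members passed without isolation 1 and 3 without isolation 3, and in KO 4 passed without isolation 1 and 5 without isolation 3.

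After D3 little moved. Of all genes, 6.58% changed between D3 and D7 in WT and 10.5% in KO, and 0 members passed in either genotype with edgeR. Lower genes were 52.7% of the calls in WT and 58.3% in KO, and 75.4% and 76.1% with library totals alone. At an unadjusted p under 0.05 there were 2 in WT, Cry2 at -0.57 ± 0.22 and Per2 at -0.76 ± 0.34 (adjusted p = 0.142 and 0.225), and 1 in KO, Per2 at -1.005 ± 0.34 (adjusted p = 0.064). DESeq2 passed 0 members in WT and 1 in KO, Per2 (adjusted p = 0.028). With the isolation number as a block, Per2 in KO was at -0.97 and passed as well (adjusted p = 0.0478).

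Of 11 other genes of the loop 10 could be tested (Arntl2 had too few counts), and in WT 3 were higher and 1 lower on D1, 3 higher and 4 lower on D3, and 3 higher and 3 lower on D7. In KO the counts were 3 and 0, 3 and 3, and 3 and 4, beside 50.6%, 52%, and 58.5% of all genes in either direction. The shares that passed in either direction in WT, 4, 7, and 6 of 10, stood beside 54.7%, 54%, and 58.8% of all genes, and the median differences were 0.18, 0.10, and 0.11. Arntl, the partner of Clock, was at 29.1, 19.8, and 15.6 CPM in WT on D0 and at 17.2, 14.4, and 27.8 CPM on D7, overlapping groups with a log2 difference of -0.12 (95% interval -0.94 to 0.70). In KO its D7 difference was 0.71 (-0.12 to 1.53, adjusted p = 0.133), and 0.99 without isolation 2 (adjusted p = 0.0227). Npas2, which can stand in for Clock, was at 7.25, 8.67, and 8.19 CPM in WT on D0 and at 0.340, 0.498, and 0.265 CPM on D7, 21.6-fold lower (-4.43 ± 0.81, adjusted p = 9.0e-05), and fell by 4.89 ± 0.87 in KO.

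**Figure D3:**
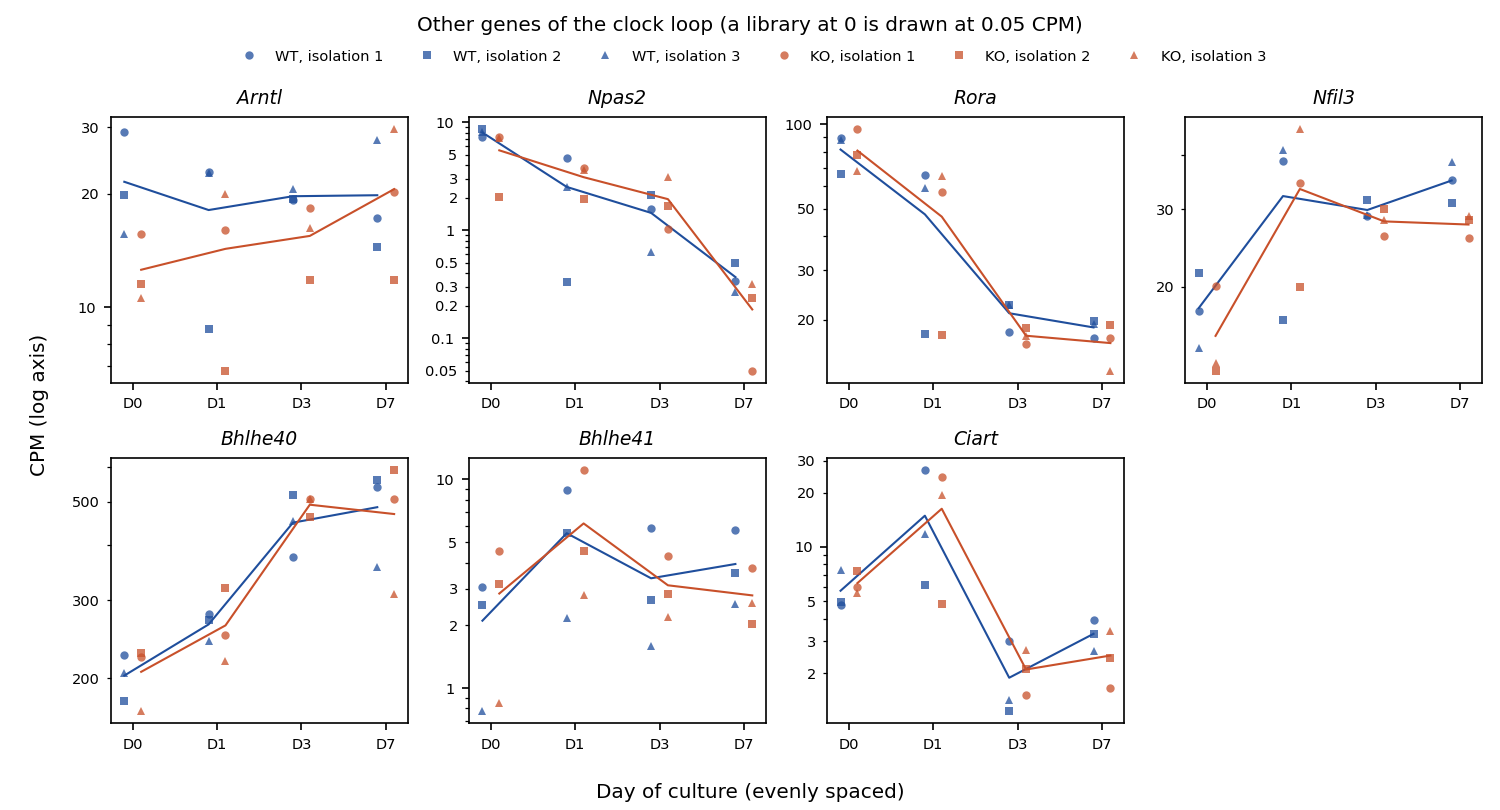
CPM (log axis) of 7 further genes of the clock loop on D0, D1, D3, and D7, with 1 point per library, colours for genotype, shapes for isolation, lines for group means, and libraries at 0 drawn at 0.05 CPM. Npas2 and Rora run down, Bhlhe40 runs up from 203 to 487 CPM in WT, Ciart peaks on D1, and Arntl shows no common course.

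Among the genes that act on Arntl, Rora, an activator that competes with the REV-ERBs, was at 89.5, 66.3, and 88.2 CPM in WT on D0, at 66.1, 17.8, and 59.1 CPM on D1, and at 18.0, 22.6, and 22.6 CPM on D3. Its D1 difference of -0.77 ± 0.38 did not pass (adjusted p = 0.0903), and by D3 it was at -1.95 ± 0.39 (2.7e-04) and in KO at -2.20 ± 0.39 (9.0e-05). Rorb had 0 counts in all 6 fresh libraries and 66 counts over the 3 WT libraries on D3, which is at least 15.5-fold higher when the fresh group is set to a floor of 3 counts in total. In KO the D3 libraries held 25, 19, and 1 counts, at least 12.1-fold higher. Rorb passed in both genotypes on each day, but on no day without isolation 1 (adjusted p = 0.0608 in WT and 0.12 in KO on D3). Hlf, the third PAR bZIP gene, was low from the start, at 3.18, 0.433, and 0.443 CPM in WT on D0, and had 0 counts in all 6 libraries on D7, which is at least 23.8-fold lower in WT and at least 21.7-fold lower in KO. Of the 58 Hlf counts in WT on D0, 50 came from isolation 1.

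Repressors outside the Per, Cry, and Nr1d families were also measured. Nfil3, which opposes the PAR bZIP factors, went from 17.6, 21.5, and 14.5 CPM on D0 to 35.1, 31.1, and 38.6 CPM on D7 in WT, groups that did not overlap (0.97 ± 0.28, adjusted p = 0.00591). In KO it rose by 0.84 ± 0.28 (0.0149). The WT value was 0.95 without isolation 1 and 0.77 without isolation 3 (adjusted p = 0.0689 and 0.088), and the KO value was 0.71 without isolation 3 (0.115). Bhlhe40, encoding the E-box repressor DEC1, was at 226, 178, and 206 CPM on D0 and at 542, 561, and 357 CPM on D7 in WT. Its difference was 1.26 ± 0.21 in WT and 1.18 ± 0.21 in KO (adjusted p = 3.6e-05 and 7.5e-05). Its paralog Bhlhe41 was at 3.05, 2.49, and 0.775 CPM on D0 and at 8.89, 5.52, and 2.17 CPM on D1 in WT, higher on D1 in each isolation. The isolations differ widely in level, and the difference of 1.36 ± 0.66 did not pass (adjusted p = 0.0871), but with the isolation as a block it did (1.35, adjusted p = 0.00325). The same held in KO on D1 (1.11, adjusted p = 0.162 and 0.0108 with the block) and in WT on D7 (0.88, 0.263, and with the block 0.97 and 0.0248).

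Ciart, an E-box repressor with 3 E-boxes in its promoter window, peaked on D1. It rose from 4.77, 4.98, and 7.42 CPM on D0 to 26.7, 6.18, and 11.8 CPM on D1 in WT (1.38 ± 0.51, adjusted p = 0.0276), and was at 3.02, 1.23, and 1.42 CPM on D3 (-1.59 ± 0.54, adjusted p = 0.0167). KO gave 1.36 ± 0.51 and -1.58 ± 0.53 (adjusted p = 0.0311 and 0.0173). The D1 difference did not pass without isolation 1 (0.53 in WT and 0.91 in KO, adjusted p = 0.447 and 0.203) or without isolation 3 (1.76 and 1.13, adjusted p = 0.0657 and 0.221). On D3 the WT value was -1.37 without isolation 2 and -1.19 without isolation 3 (0.0508 and 0.219), and the KO value ran from -1.87 to -1.40 with adjusted p between 0.0502 and 0.0649 whichever isolation was left out.

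Of 14 kinases, ligase subunits, and other regulators of clock proteins, 2 were higher and 3 lower in WT on D1 and 4 higher and 5 lower on D7, with medians of 0.01 and 0.13. That is 5 and 9 of 14 beside 54.7% and 58.8% of all genes, so the share was below that of all genes on D1 and near it on D7. The casein kinase Csnk1e, which phosphorylates PERIOD proteins, rose from 59.6 ± 3.32 to 138 ± 22.1 CPM by D7 (1.21 ± 0.14, adjusted p = 2.6e-07). Usp2, a deubiquitinase, fell by 1.21 ± 0.24 (2.2e-04), Timeless rose by 1.40 ± 0.49 (0.0182), and Fbxl21, a cryptochrome ligase subunit, fell by 1.86 ± 0.77 from a level of 1.43 ± 0.36 CPM (0.0429). Fbxl21 did not pass with any isolation left out, at -2.25 to -1.53, and Timeless did not pass without isolation 2 (1.59) or isolation 3 (1.08). Of 7 known clock output genes, 3 were higher and 2 lower on D1 and 3 and 3 on D7, with medians of 0.69 and -0.19, or 5 and 6 of 7 beside the same shares of all genes. Noct, a rhythmic phosphatase, rose by 1.54 ± 0.18 on D1 and 2.51 ± 0.18 on D7 (adjusted p = 4.6e-07 and 5.1e-10), and Klf10 rose by 1.38 ± 0.21 on D1 (1.3e-05). Herpud1 fell by 2.48 ± 0.34 and Por by 1.68 ± 0.19 on D7 (2.5e-06 and 2.1e-07).

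Glucocorticoids and cAMP are known inputs that reset cellular clocks and act on Per1 directly. Of 8 glucocorticoid response genes, 2 were higher and 3 lower in WT on D1 and 3 and 4 on D7, with medians of -0.01 and -0.77. These are 5 and 7 of 8 beside 54.7% and 58.8% of all genes, the former close to the share of all genes. Sgk1, a kinase, rose from 12.6 ± 7.11 to 379 ± 199 CPM on D1 (4.88 ± 0.45, adjusted p = 2.7e-08) and Mt2, a metallothionein, by 3.24 ± 0.49 (1.4e-05). Tsc22d3, encoding GILZ, fell by 1.64 ± 0.30 on D1 and 3.30 ± 0.33 on D7 (1.3e-04 and 3.5e-08), and Zbtb16 fell by 3.34 ± 0.93 on D1 from 4.18 ± 1.96 CPM (0.00481), with 1, 0, and 1 counts left on D7. Without isolation 2 the Zbtb16 value on D1 was -2.84 and did not pass (0.076). Of 7 cAMP response genes, 1 was higher and 5 lower on both D1 and D7, with medians of -1.27 and -1.73, or 6 of 7 on each day. Fos, an immediate early gene, was at 580.3, 118, and 160.3 CPM in WT on D0 and at 8.92, 5.89, and 6.83 CPM on D7 (-5.31 ± 0.70, adjusted p = 1.7e-06), so its fresh level differed widely between isolations. Nr4a1 fell by 3.42 ± 0.55 by D7 (2.0e-05). Nr4a2, of the same family, rose by 3.55 ± 0.63 on D1 (8.1e-05), and the phosphodiesterase Pde10a rose by 4.15 ± 0.98 by D7 (0.00104). KO gave counts of 2 and 2 for glucocorticoid genes and 1 and 4 for cAMP genes on D1, higher and lower. Of all genes, 50.6% passed in either direction in KO on that day.

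Isolation 2 stood lowest on D1. In 9 of 10 members in WT and 10 of 10 in KO it held the lowest of the 3 D1 values, whereas over all genes tested it was lowest for 39% and 35.2%. On D0 the same isolation was lowest for 6 members in WT and 0 in KO. Relative to D0 of the same isolation, Nr1d1 was at 61.4%, 28.5%, and 53.2% in isolations 1, 2, and 3 on D1 in WT and at 57.0%, 35.0%, and 72.5% in KO. Cry1 was at 367%, 187%, and 284% in WT and at 578%, 167%, and 464% in KO. Dbp was at 11.8%, 1.73%, and 2.88% in WT and at 9.50%, 2.15%, and 4.24% in KO. The AEC2 marker sum moved with it, at 69860, 12610, and 56100 CPM on D1 in WT and at 67740, 11950, and 51000 CPM in KO. The part of this in the D1 levels of clock genes was not tested. The falls of Per1, Per2, Per3, Cry2, Dbp, and Tef on D1 passed with isolation 2 left out.

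**Figure D4:**
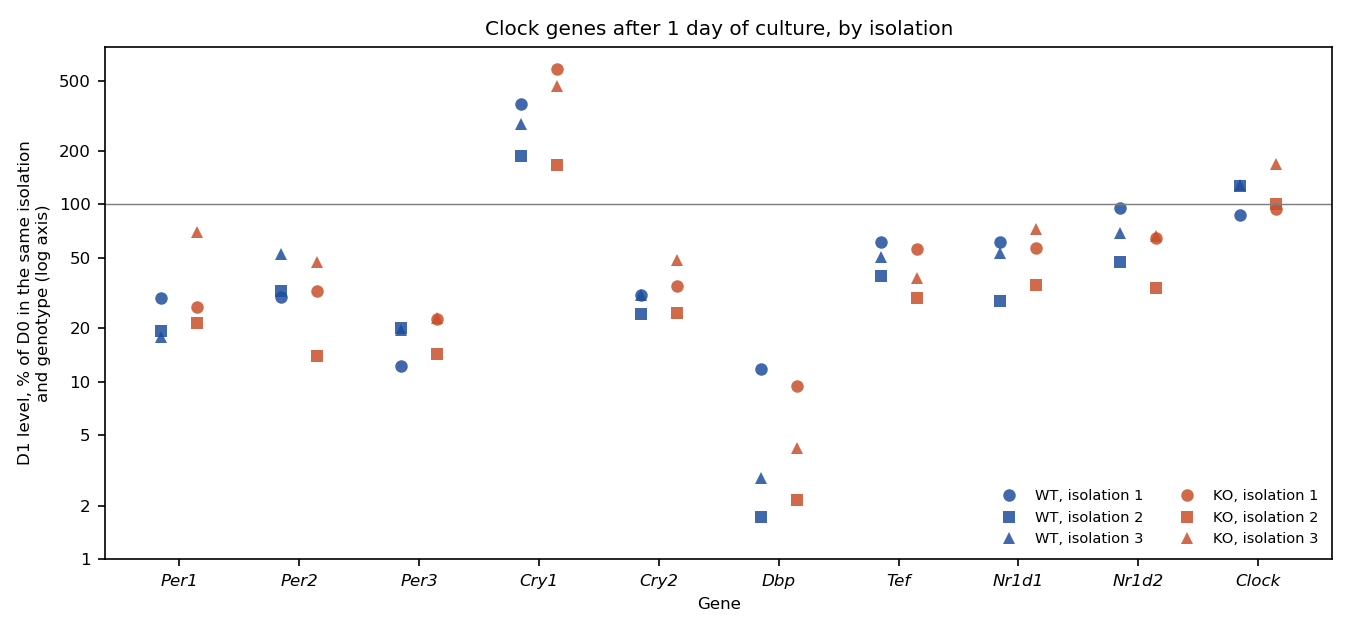
Level of each clock gene on D1 as a percentage of D0 in the same isolation and genotype (log axis), with WT in blue, KO in red, and shapes for isolations 1, 2, and 3. Dbp lies between 1.73% and 11.8%, Cry1 lies above 100% in all 6 pairs, and the squares of isolation 2 are the lowest for Cry1, Cry2, Dbp, Tef, Nr1d1, and Nr1d2 in both genotypes.

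Within groups the members spread more between isolations than most genes of like level. The SD of log2 CPM around the group means was 0.75 for Dbp, 0.40 for Nr1d1, 0.34 for Nr1d2, and 0.34 for Per1, against medians of 0.39, 0.20, 0.19, and 0.44 for the 1000 genes nearest in mean level to each. In 9 of 10 members, all but Per1, the SD lay above that median. As a description over the 24 libraries, which share their isolations and any shift common to a library, the deviations were compared in pairs. Over the 45 pairs of members the median of Pearson's r was 0.36, the lowest value was -0.17 and the highest 0.90, and 41 pairs were above 0. The highest was between Nr1d1 and Nr1d2. Beside this, the median r of a member with the other 18045 genes tested was between -0.002 for Cry1 and 0.103 for Cry2, with 49.6% to 58.8% of those genes above 0. Over all genes the 5 most like Nr1d1 in this measure were Rnf145, Edc4, Prpf6, Lamp2, and Nr1d2 (r from 0.90 to 0.93), and the 5 most like Dbp were Ppp1r1b, Gpr155, Zfp655, Lztr1, and Gmfb (0.87 to 0.91).

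No clock gene differed detectably between Krt8+/+ and Krt8-/- cells. The comparison asks whether loss of keratin 8 altered these genes in fresh cells or along the culture. On D0, D1, D3, and D7, 0 of 10 members passed with edgeR, with 0 at an unadjusted p under 0.05 and 0 by DESeq2. Of all genes 0.0277% passed on D0 and 0.0166% on each other day, so almost none of the transcriptome passed either. The joint test of genotype by day passed 0 members and 0.00554% of all genes, with a lowest unadjusted p of 0.0671, for Per1. On D0 the members' differences ran from -0.23 for Cry1 to 0.31 for Tef. On D1 they ran from -0.23 for Nr1d2 to 0.59 for Per1, on D3 from -0.61 for Per1 to 0.32 for Per2, and on D7 from -0.18 for Per3 to 0.32 for Cry2.

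How large a difference could have been missed depends on the gene. The narrowest 95% interval on D0 reached 0.41 on the log2 scale to each side and the widest, that of Dbp, 0.98. For Nr1d1 the D0 interval was -0.69 to 0.54 and the D3 interval -0.59 to 0.66, and for Cry2 the intervals were -0.51 to 0.37 and -0.41 to 0.49. For Dbp the D3 interval was -1.50 to 1.21 and for Per2 the D1 interval was -0.76 to 0.60. Leaving out isolation 1, where sex and genotype coincide, also gave 0 members on each day. Compared within isolations, 2 members were higher in KO in all 3 on D0 (Dbp and Tef), 4 were higher (Per1, Per3, Cry2, and Dbp) and 2 lower (Per2 and Nr1d2) on D1, 2 were lower on D3 (Per1 and Dbp), and 0 had a common sign on D7. How many of all genes had a common sign was not computed, so these counts give no result about the members. With the isolation as a block 0 members passed on any day. Dbp on D0 was at 115 to 141.5 CPM in WT and 142.6 to 172.1 CPM in KO, and Per3 on D1 at 6.85 to 7.05 and 7.91 to 12.65 CPM, without overlap (0.24 and 0.52, adjusted p = 1 for both with edgeR). Per1 had the largest differences on D1 and D3. On D1 it was at 4.26, 3.76, and 3.94 CPM in WT and at 5.56, 5.51, and 6.93 CPM in KO, higher in all 3 isolations (0.59, interval -0.02 to 1.20, adjusted p = 1). On D3 it was at 3.48, 3.44, and 3.29 CPM in WT and at 2.61, 2.17, and 1.90 CPM in KO, lower in all 3 (-0.61, interval -1.24 to 0.02, adjusted p = 1). The groups did not overlap on either day, from 27 to 89 counts per library.

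**Figure D5:**
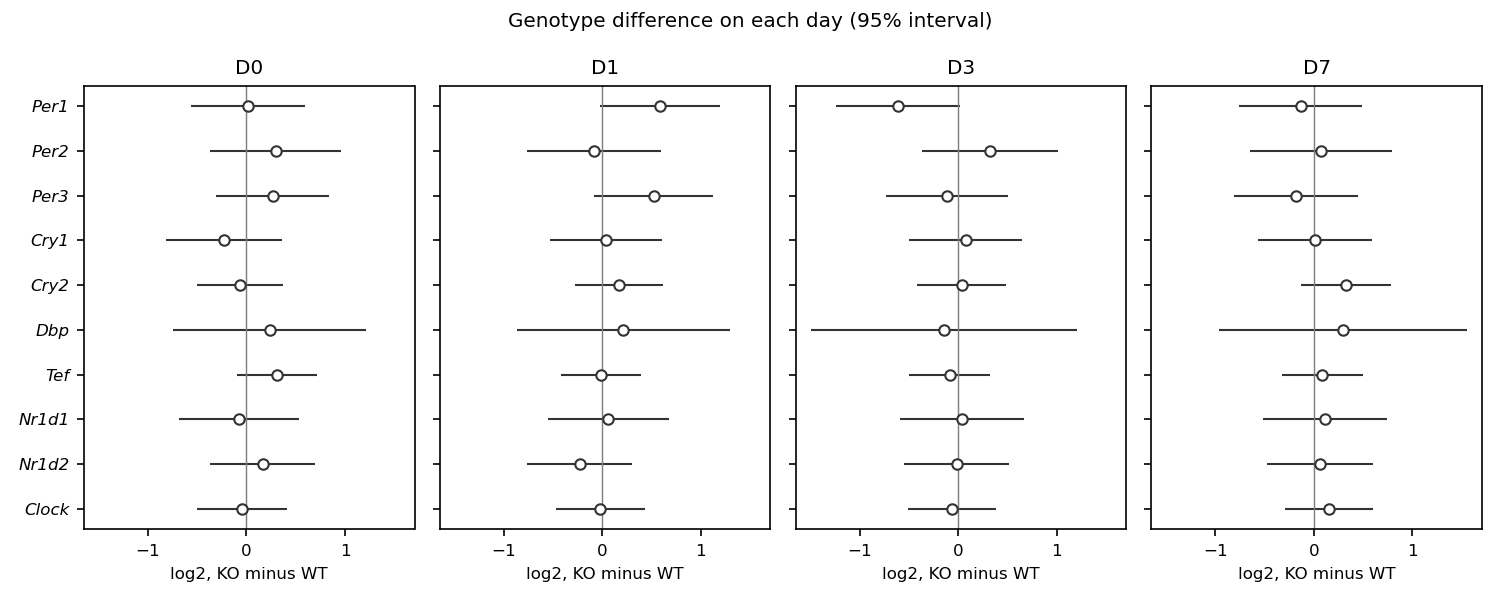
Log2 difference of KO minus WT for each clock gene on D0, D1, D3, and D7, with 95% intervals. All 40 intervals hold 0, and the intervals of Dbp are the widest on each day.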

How the data were processed

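Per the labels, RNA-Seq was done on 24 libraries of WT and KO cells, grouped by genotype and day. The authors deposited raw read counts per gene. The submitters' processing notes name cutadapt 2.3, STAR 2.7.8a, RSEM 1.3.3, and the build GRCm38 without their roles, so whether the counts are rounded RSEM estimates is not known. Symbols, positions, and exon lengths came from GENCODE M21, which matched 55240 of 55421 identifiers. The 181 others held at most 0.0122% of a library's counts, and 5 reporter entries held 0. The exon length of a gene was that of all its annotated exons merged over transcripts. Levels per kilobase, their ratios between genes, and the order of the members depend on that length.

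The members and the gene lists were chosen with earlier results of these data known. Genes were kept with edgeR's filterByExpr (minimum count 10, minimum total 15), scaled by TMM, and fitted in a quasi-likelihood model of the 8 group means (edgeR 4.0.16, R 4.3.3, 16 residual degrees of freedom). P-values were adjusted by Benjamini-Hochberg over 18046 genes. Log2 differences used edgeR's default prior count, and deviations within groups used log2 CPM with a prior count of 2. SE and 95% intervals came from the F statistic. The method was tested on simulated data. Named were all members, the other loop genes, up to 4 genes per further list with the largest passing change in WT on D1 or D7, and for Dbp and Nr1d1 the 5 genes most alike. For 1 loop gene the result is not reported here. Counts over a group at 0 were set against a floor of 3 counts, which covers counting error only. P-values measure the spread between libraries of a group, which come from separate isolations. The main fit did not use the pairing of libraries by isolation and treated them as independent. No pair of libraries of the same group agreed within sampling noise, and pairs from different groups were not compared.

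The labels give biological replicates whose titles share date-like suffixes over genotypes and days. These suffixes are read here as isolations, which pairs the libraries. Correlations of same-numbered libraries' deviations were -0.0345 to 0.3827 between days and 0.0573 to 0.5476 between genotypes. Alternatives were DESeq2 (1.42.0) size factors and test, library totals alone, no filter, the isolation as a block, and leaving out each isolation.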

Additional observations from a re-analysis of the deposited data

Results flagged for a closer look

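Per1 and Dbp were picked out because the difference between KO and WT had opposite signs in all 3 isolations on 2 days. Every member was scanned over every pair of days, and how often other genes meet this rule was not computed. As a mean of log2 ratios within isolations, Per1 was 0.58 higher in KO on D1 and at -0.62 on D3, a change of -1.21. Dbp was 0.24 higher in KO on D0, 0.42 higher on D1, and at -0.14 on D3, changes of -0.38 from D0 to D3 and -0.57 from D1 to D3. Its sign on D3 rests on few reads, with 21, 23, and 32 counts in WT and 19, 20, and 25 counts in KO. The joint edgeR test of genotype by day did not pass for either gene, with an adjusted p of 1 for both. The difference between the pairs of days was not tested by itself.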

How the results depend on the processing

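Of 154 results for single genes, 95 kept their direction and their side of the threshold under all alternatives. The counts of members that passed against D0, between genotypes, and in the test of genotype by day stayed within 1.5 times of those given, as did the count of members with a wide spread. Counts that moved further were those between D1 and D3, 2 to 7 in WT and 4 to 7 in KO over the isolations left out, and those between D3 and D7. There, 1 member passed in WT with library totals alone, and 1 in KO with library totals alone, the DESeq2 test, no filter, and the replicate block. The replicate block (isolation) changed the calls of Bhlhe41 and of Per2 in KO given above and no other call. Reversed directions were among values that had not passed. Arntl in WT was at 0.17 on D1, 0.46 on D3, and 0.32 on D7 with library totals alone. Over the isolations left out it ran from -0.63 to 0.11 on D1, -0.35 to 0.17 on D3, and -0.63 to 0.26 on D7, and in KO on D1 from -0.26 to 0.55. Clock ran from -0.16 to 0.36 in WT on D7, -0.04 to 0.39 in KO on D1, and 0.00 to 0.60 in KO on D3. The cause was not tested. With library totals alone Nr1d1 did not pass on D1 (-0.61 in WT and -0.45 in KO), nor did Nr1d2 in KO (-0.42), and Cry1 passed on D7 (0.65 in WT and 0.85 in KO). Depth limits genes with few counts in culture, among them Dbp, Per1, Npas2, Hlf, and Rorb. The hour of harvest and the share of each cell type cannot be told apart from day in culture.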
